A study of Mus musculus with 26 samples.

Results

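The genes described here are 8 members of the Nrf2 antioxidant response, taken by name from the count tables of mouse dorsal root ganglia (the paired nodes along the spine that hold the cell bodies of sensory neurons): *Nfe2l2*, *Keap1*, *Hmox1*, *Gclc*, *Gclm*, *Srxn1*, *Txnrd1* and *Slc7a11*. All 8 were found, among 55401 genes, and all 8 passed the filter on low counts in every comparison. Nrf2, the product of *Nfe2l2*, is a transcription factor that *Keap1* protein binds and directs to degradation. Oxidants and electrophiles modify Keap1, Nrf2 then escapes degradation, enters the nucleus and, paired with a small Maf protein, binds antioxidant response elements in its target genes. The targets include genes of glutathione synthesis (*Gclc*, *Gclm*, *Slc7a11*), of the thioredoxin and sulfiredoxin systems (*Txnrd1*, *Srxn1*) and of heme breakdown (*Hmox1*). Because Nrf2 is controlled largely as a protein, the mRNA of *Nfe2l2* is not a measure of its activity.

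RNA sequencing was done on 26 libraries in 10 groups, from mice of a study of *Ahr*, the gene of the aryl hydrocarbon receptor, in axon regeneration. The conditional knockout group (cKO) was *Ahr* f/f with Thy1-CRE(ERT2/EYFP), that is, both *Ahr* alleles floxed and a Cre recombinase, switched on by tamoxifen and marked by a yellow fluorescent protein, under the *Thy1* promoter, which is active in a part of the neurons. Controls carried no Cre. In the naive, injured and sham groups they were a mixture of *Ahr* fl/+ and *Ahr* fl/fl mice (2 and 1 of 3 in the naive and in the injured group, 1 and 1 of the 2 sham mice), and all 3 neuron controls were *Ahr* fl/fl. The naive and injured mice, 3 per genotype and condition, were given tamoxifen when 28 weeks old (5 daily doses of 100 mg/kg), controls included. Their L4 to L6 ganglia were taken 5 weeks later, or 1 day after a sciatic nerve crush done at that time. The sham ganglia came from the operated (ipsilateral) and the opposite (contralateral) side of 2 mice per genotype, 1 day after sham surgery. The neurons were semi-purified from ganglia and kept for 24 hours in culture (3 libraries per genotype). The labels number a mouse for each library and give neither tamoxifen nor age for the sham mice and the mice of the neuron cultures.

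The total count of a library lay between 20169388 and 23540375 for the naive and injured ganglia (n = 12), between 39306414 and 58751270 for the sham ganglia (n = 8) and between 25299938 and 88180611 for the neurons (n = 6). The *Ahr* count does not check the genotype labels: in CPM (counts scaled to a common library size with TMM factors over the 26 libraries) it was 18.0 to 22.8 for naive controls against 21.4 to 26.8 for naive cKO ganglia, and 44.8 to 55.0 against 44.4 to 57.0 CPM in neurons. In edgeR's quasi-likelihood test *Ahr* differed by genotype in no set (log2 fold changes of -0.05 to 0.17, adjusted p of 0.754 to 1.0), so cKO and control stand for the libraries labelled so. In a pair of libraries the sex transcripts go against the label: replicate 3 of the injured controls (male by label, with 338 counts of *Xist* and 2 from Y-linked genes) and replicate 2 of the injured cKO mice (female by label, with 0 and 1641). Read from transcripts, 2 of the 3 injured cKO mice were male and every other naive or injured mouse female. The neurons were all female and the sham ganglia all male, by labels and transcripts. The naive and injured ganglia held the markers of sensory neurons at 8313 to 9861 summed CPM (12 genes, none at 0).

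**Figure D1:**
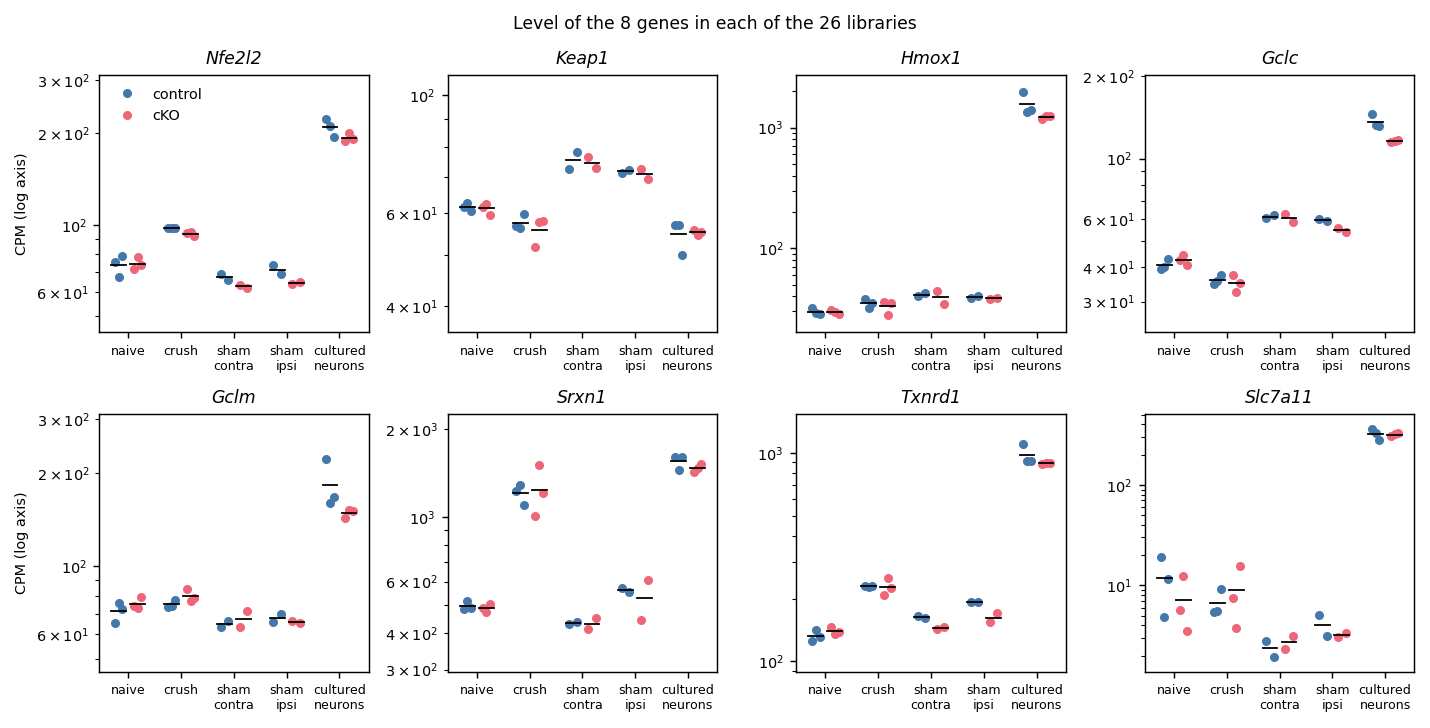
Level of each gene in CPM (vertical log axis, a different range in each panel) in the 26 libraries. Each point is 1 library, blue for control and red for cKO, and the bar is the group mean. Cultured neurons stand above all ganglia for every gene except *Keap1* and *Srxn1*, whose injured cKO replicate 2 (1501 CPM) lies within the neurons' range, and *Srxn1*, *Txnrd1* and *Nfe2l2* are higher after crush.

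The promoters of these genes are described first. RefSeq promoter windows (GRCm38.p6, 250 bases before to 50 after the transcription start) were at hand for 6 of the 8 genes, and *Hmox1* and *Gclc* were not matched. The core of the antioxidant response element was searched as TGACNNNGC, the AP-1 site as TGANTCA, the ATF4 composite site as TGATGNAAN and the AhR core as TNGCGTG, each on both strands. The antioxidant core was present in 4 of the 6 genes (*Nfe2l2*, *Gclm*, *Srxn1*, and *Txnrd1* in 1 of its 3 windows). That is 4 of their 8 windows, against 12.39% of all 32851 promoter windows. *Srxn1* held 2 AP-1 matches 102 to 96 and 45 to 39 bases upstream of its start (AP-1 matches: 7.81% of all windows). Its match to the antioxidant core as searched lay downstream, 29 to 37 bases into the transcript. The AP-1 match nearer the start is followed by gc in the stretch below. It thus differs from the searched antioxidant core only by G in place of C, a form that the search did not take in. *Slc7a11* held 2 ATF4 composite matches, 66 to 58 and 48 to 40 bases upstream, on opposite strands (3.95% of all windows), and no antioxidant core match. The AhR core was found in none of the 6 (5.07% of all windows). No match to the letters searched overlapped another. These matches are descriptions of letters in a window, not bound sites. Each stretch below is written 5′ to 3′ on the gene's own strand, with every match in capitals.
*Nfe2l2*, chr2:75704875-75704913, minus strand, antioxidant core: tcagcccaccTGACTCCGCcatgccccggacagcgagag
*Gclm*, chr3:122245403-122245451, plus strand, antioxidant core on the other strand: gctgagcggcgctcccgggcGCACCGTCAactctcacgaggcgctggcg
*Txnrd1*, chr10:82859094-82859142, plus strand, antioxidant core on the other strand: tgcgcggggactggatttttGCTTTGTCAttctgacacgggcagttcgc
*Srxn1*, chr2:152105402-152105523, plus strand, AP-1 sites: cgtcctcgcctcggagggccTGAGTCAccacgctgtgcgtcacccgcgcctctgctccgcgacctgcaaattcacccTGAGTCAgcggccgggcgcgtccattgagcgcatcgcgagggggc
*Slc7a11*, chr3:50443633-50443699, minus strand, ATF4 composite sites: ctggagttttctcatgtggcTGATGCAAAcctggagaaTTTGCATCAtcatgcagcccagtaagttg

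The 8 genes differed widely in level. Per exonic kilobase, naive control ganglia held *Srxn1* at 176 CPM, *Nfe2l2* at 19.5, *Txnrd1* at 18.7, *Hmox1* at 17.1, *Keap1* at 13.1, *Gclm* at 11.3, *Gclc* at 10.9 and *Slc7a11* at 0.86 (means, n = 3). The counts cover the whole gene span with introns, so this scale overstates genes with much intronic RNA, and the strand setting of the counting is not given in the sources used here. *Srxn1* thus stood far above the others already without injury, and *Slc7a11* (chr3:49892526-50443614 in GRCm38) far below. In cultured control neurons the same quantity was 894 CPM per exonic kilobase for *Hmox1*, 550 for *Srxn1*, 138 for *Txnrd1*, 55.2 for *Nfe2l2*, 36.3 for *Gclc*, 29.2 for *Gclm*, 23.3 for *Slc7a11* and 11.6 for *Keap1*, so *Hmox1* ranked first there and *Keap1* last.

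After crush of the sciatic nerve part of the set was higher: *Srxn1*, *Txnrd1* and *Nfe2l2* rose in both genotypes, and none of the genes of heme breakdown and glutathione synthesis was called as higher. In control mice 3 of 8 members rose and none fell, where 21.6% of the 21261 genes tested were called, 12.9% as higher and 8.73% as lower. In cKO mice 3 of 8 rose and 1 fell, where 18.6% of all genes were called, 10.7% as higher and 7.89% as lower. The 3 that rose were the same in both genotypes. All injured control mice were above all naive ones for 4 members and below for 2, and all injured cKO mice above for 3 and below for 2. Without overlap stood 21% of all genes higher and 17.5% lower in control, and 19.9% and 16.4% in cKO mice, so non-overlap by itself says little here. The median log2 fold change of the 8 members was 0.16 in control and 0.23 in cKO mice, beside -0.02 and 0.0 over all genes tested. The naive animals of each genotype are the only comparison group here, and no sham library entered this fit. In bulk RNA fewer cells of a type and less RNA per cell cannot be told apart.

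*Srxn1* (chr2:152105516-152111376, plus strand) encodes sulfiredoxin, the enzyme that reduces overoxidized peroxiredoxins. It stood at 483, 516 and 487 CPM in the naive control mice and at 1225, 1283 and 1096 CPM after crush. In cKO mice it stood at 487, 471 and 504 CPM in naive ganglia and at 1004, 1501 and 1210 CPM after crush. Every injured mouse was above every naive mouse, and the spread among injured cKO mice was the widest. The log2 fold change was 1.28 in control (SE 0.115, adjusted p 1.68e-05, edgeR) and 1.33 in cKO (SE 0.115, adjusted p 1.59e-05), a rise of 2.43-fold and 2.52-fold. The highest value, 1501 CPM, belonged to injured cKO replicate 2, a library whose transcripts do not match its labelled sex, and without it and injured control replicate 3 the log2 fold change in cKO was 1.17.

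*Txnrd1* (chr10:82833951-82897712, plus strand) encodes the cytosolic thioredoxin reductase, which keeps thioredoxin reduced with NADPH. It was at 125, 141 and 131 CPM in naive control and at 229, 228 and 231 CPM in injured control mice. In cKO mice it was at 146, 136 and 138 CPM and, after crush, at 208, 250 and 226 CPM. The groups did not overlap in either genotype. The log2 fold change was 0.79 (SE 0.0708, adjusted p 1.58e-05, edgeR) in control and 0.69 (SE 0.0707, adjusted p 5.16e-05) in cKO mice.

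*Nfe2l2* (chr2:75675513-75704641, minus strand) showed a smaller rise. Its level was 75.7, 67.3 and 79.0 CPM in naive control and 97.8, 97.5 and 97.5 CPM in injured control mice, and 71.5, 78.6 and 73.6 CPM against 94.2, 94.6 and 91.7 CPM in cKO mice. All injured libraries lay above all naive ones and were close to each other. The log2 fold change was 0.40 (SE 0.0554, adjusted p 0.000342, edgeR) in control and 0.31 (SE 0.0555, adjusted p 0.002) in cKO mice.

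*Keap1* (chr9:21229730-21239361, minus strand), the inhibitor, was not called. It ranged from 59.5 to 62.7 CPM in the 6 naive and from 51.7 to 59.8 CPM in the 6 injured mice, with log2 fold changes of -0.09 (SE 0.0544, adjusted p 0.254, edgeR) in control and -0.15 (SE 0.0545, adjusted p 0.0846) in cKO mice. With library totals only, with the labelled sex or with the transcript sex as a covariate it fell in cKO mice (adjusted p of 0.037, 0.0423 and 0.0451). An antisense gene, *Gm16754*, covers 34.4% of its span and held counts equal to 40.2% of its own, so part of the *Keap1* count may belong to that gene.

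The glutathione synthesis genes were not among those that rose. *Gclc* (chr9:77754535-77794485, plus strand), the catalytic subunit of glutamate-cysteine ligase, stood at 42.7, 44.3 and 40.9 CPM in naive and at 37.6, 32.4 and 35.1 CPM in injured cKO mice and fell there (log2 fold change -0.30, SE 0.0637, adjusted p 0.00649, edgeR). In control mice it was at 39.4, 40.1 and 43.1 CPM and at 34.8, 35.6 and 37.6 CPM after crush, also without overlap (as were 17.5% of all genes, lower), and missed the threshold (-0.18, SE 0.0636, adjusted p 0.0651). These calls changed with the setting: with the transcript sex as a covariate *Gclc* was called in control (-0.18, adjusted p 0.0447) and no longer in cKO mice (-0.19, adjusted p 0.2), and without the pair of libraries whose sex does not match it was called in control (-0.22, adjusted p 0.0335), as it was with library totals only (-0.25, adjusted p 0.0236). *Gclm* (chr3:122245557-122270732, plus strand), the modifier subunit of the same enzyme, ranged from 65.3 to 79.3 CPM in naive and from 73.7 to 84.1 CPM in injured mice (log2 fold changes 0.08 and 0.07, adjusted p 0.455 and 0.543, edgeR). The predicted gene *Gm17494* on the opposite strand covers 58.7% of the *Gclm* span and held counts equal to 114% of those of *Gclm*, so the *Gclm* count is uncertain throughout.

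*Slc7a11* encodes the light chain of the cystine-glutamate exchanger, which brings in the cystine for glutathione. It was low and scattered: 19.3, 4.89 and 11.7 CPM in the naive controls, 5.66, 12.4 and 3.51 CPM in the naive cKO mice, 5.49, 5.54 and 9.23 CPM in injured control and 7.54, 3.8 and 15.5 CPM in injured cKO mice. All 4 groups overlapped. The log2 fold change of crush was -0.82 in control (SE 0.571, adjusted p 0.349, edgeR) and 0.32 in cKO mice (SE 0.575, adjusted p 0.763), and the latter was -0.21 with the labelled sex as a covariate, -0.02 without naive cKO replicate 3 and -0.35 without injured cKO replicate 3. Naive control replicate 1, the highest, also had the highest summed CPM of the neutrophil markers (594, against 47.2 to 329 in the other naive and injured libraries) and of the macrophage markers (654, against 270 to 489). The second highest, injured cKO replicate 3, had the lowest neutrophil sum of the 12 (47.2 CPM) and a macrophage sum of 330 CPM. The part of these cells in the *Slc7a11* values was not tested.

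*Hmox1* (chr8:75093621-75100589, plus strand) encodes heme oxygenase 1, which opens the heme ring. It was at 32.3, 28.9 and 28.5 CPM in naive control and 38.4, 32.3 and 35.5 CPM in injured control mice, and at 30.8, 29.9 and 28.6 against 36, 28.2 and 35.3 CPM in cKO mice. The log2 fold change was 0.25 (SE 0.0967, adjusted p 0.0909, edgeR) and 0.14 (SE 0.097, adjusted p 0.357), so *Hmox1* was not called in either genotype; with the replicate number as a block it was called in control mice (adjusted p 0.0419). The 12 macrophage markers, all with counts in every group, summed to 302 to 654 CPM in naive and 270 to 489 CPM in injured ganglia.

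Markers of other cells were read beside the shares over all genes given above (12.9% higher and 8.73% lower in control, 10.7% and 7.89% in cKO mice). Of the 5 erythrocyte markers 2 fell in cKO mice (40.0%), where they summed to 247 to 407 CPM in naive and 102 to 274 CPM in injured ganglia. In control mice edgeR called 0 of the 5, and 0 had an unadjusted p under 0.05. Of the 4 neutrophil markers edgeR called 0 in either genotype. Their median log2 fold change was -0.46 in control mice, with 0 at an unadjusted p under 0.05, and -1.85 in cKO mice, with 3 at that level and sums of 155 to 307 CPM in naive and 47.2 to 107 CPM in injured ganglia. Of the 8 satellite glia markers 2 rose and 1 fell in control and 1 rose in cKO mice, with *Glul*, which encodes glutamine synthetase, up 1.49- and 1.4-fold. Of the 12 sensory neuron markers 1 fell in control mice (8.33%, near the share over all genes) and 2 fell in cKO mice (16.7%), with *Isl1*, a transcription factor gene of these neurons, at -0.33 and -0.32 in log2. Of the 12 macrophage markers 1 rose in cKO mice (*Cd14*, 1.67-fold; 8.33%, below the share over all genes), and of the 6 endothelial markers 1 fell in control mice. The part of these cells in the changes of the members was not tested.

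**Figure D2:**
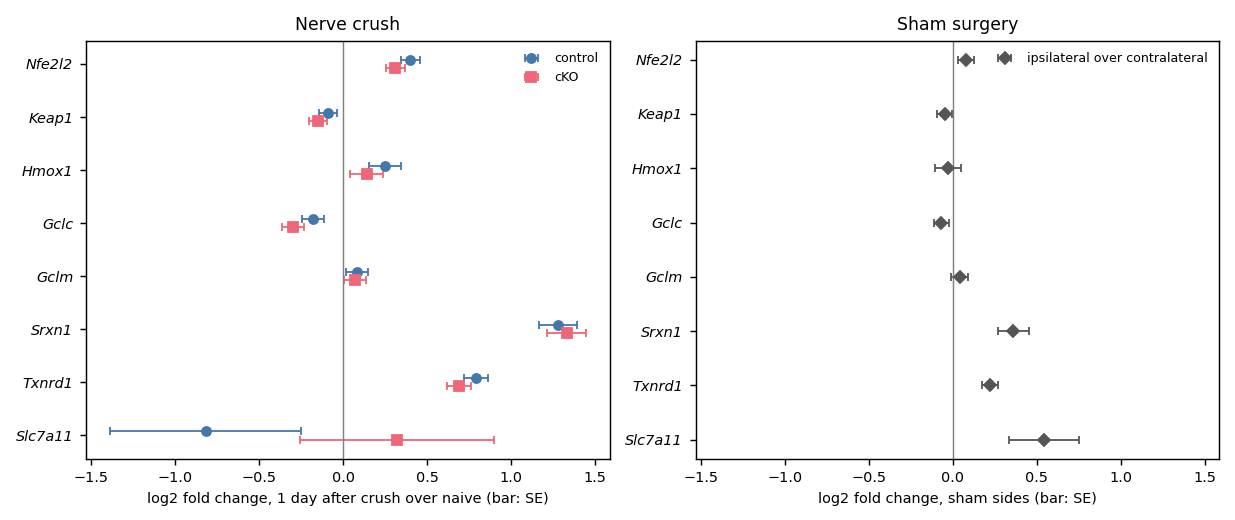
Left, log2 fold change of each gene 1 day after crush over naive ganglia (horizontal axis, bar 1 SE, 3 mice per group), circles for control and squares for cKO. Right, the same for the ipsilateral over the contralateral side after sham surgery (diamonds, 4 mice). *Srxn1* and *Txnrd1* stand apart at 1.28 and 0.79 in control and 1.33 and 0.69 in cKO mice.

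The injury effects did not differ between genotypes past the threshold. None of the 8 members was called for the interaction by edgeR or by DESeq2, none had an unadjusted p under 0.05, and 0.0% of the 21261 genes were called by edgeR (627 had an unadjusted p under 0.05, and DESeq2 called 0). The difference in the crush effect, cKO minus control, was 0.05 for *Srxn1* (SE 0.16), -0.11 for *Txnrd1* (SE 0.0995), -0.09 for *Nfe2l2* (SE 0.0783) and 1.14 for *Slc7a11* (SE 0.81), all with an adjusted p of 1.0. The *Slc7a11* value was 0.47 without injured cKO replicate 3, 1.77 without naive cKO replicate 2 and 1.79 without the 2 libraries whose sex does not match. For *Srxn1* the sign changed with the setting: the difference was -0.25 with the transcript sex as a covariate and -0.16 without the pair of libraries whose sex does not match (-0.11 without injured cKO replicate 2 alone).

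The other genes of the pathway were taken from lists that hold none of the 8 members, and their counts are read against all genes tested, of which 12.9% rose and 8.73% fell in control and 10.7% rose and 7.89% fell in cKO mice. Of 13 regulators of Nrf2, 5 rose and none fell in control mice, and 4 rose and 1 fell in cKO mice (38.5% and 30.8% higher). *Bach1*, a repressor that competes with Nrf2 at its elements, rose 1.97-fold in control and 1.77-fold in cKO mice, *Mafk* 1.86- and 1.81-fold and *Maff* 1.82- and 1.63-fold, the last 2 being small Maf partners of Nrf2. *Sqstm1*, which encodes the Keap1-binding autophagy receptor p62, rose 1.28- and 1.23-fold, *Gsk3b* rose 1.28-fold in control mice, and *Bach2* fell in cKO mice (log2 fold change -0.24). Of 24 glutathione genes 4 rose and 1 fell in control, and 3 rose and 1 fell in cKO mice, or 16.7% and 12.5% higher, near the 12.9% and 10.7% of all genes. *Chac1*, an enzyme that degrades glutathione, rose 4.21- and 4.24-fold, *Ggt5* rose 1.98- and 1.57-fold, *Slc3a2*, the partner chain of Slc7a11, rose 1.48- and 1.38-fold, and *Mgst3*, a microsomal glutathione S-transferase, fell (-0.35 and -0.25 in log2). The median of the list was -0.06 in control and 0.01 in cKO mice.

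Of 14 thioredoxin system genes 3 rose and 1 fell in each genotype (21.4% and 7.14%, where 12.9% and 8.73% of all genes did so in control and 10.7% and 7.89% in cKO mice), among them *Prdx6*, *Sesn2* and *Txnrd3* upward (1.29- and 1.16-fold, 2.01- and 2.41-fold, 1.35- and 1.56-fold) and *Sesn3* downward. Of 10 heme and iron genes 1 rose (*Alas1*, 1.29- and 1.25-fold) and 1 fell (*Fech*), or 10% each, near the shares over all genes. Of 19 NADPH and quinone genes 5.26% rose in each genotype, below those shares, which was 1 gene (*Taldo1*, of the pentose phosphate pathway, 1.34-fold in each genotype), while *Ephx1* fell in both genotypes and *Nqo2* fell in control mice. *Nqo1*, a quinone reductase and a standard Nrf2 target, was not called, at 14.1 to 15.5 CPM in naive and 12.6 to 14.8 CPM in injured mice. None of the 4 superoxide and peroxide genes was called by edgeR (1 had an unadjusted p under 0.05 in control and 0 in cKO mice). Of the genes of the ATF4 stress response, 9 of 12 rose and none fell in control mice, and 8 rose and 1 fell in cKO mice (75.0% and 66.7% higher), with *Chac1*, *Trib3* (2.56- and 2.64-fold) and *Atf4* itself (1.57- and 1.62-fold) among them. This list shares *Chac1* and *Slc3a2* with the glutathione list and *Sesn2* with the thioredoxin list. Of 8 genes of AhR and its targets 3 rose in control and 2 in cKO mice (37.5% and 25%), *Cyp1b1* (1.77- and 1.72-fold) and *Ahr* (1.7- and 1.58-fold) in both and *Tiparp* (1.33-fold) in control mice.

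After sham surgery none of the 8 members was called by edgeR between ipsilateral and contralateral ganglia, where 1 gene in 22160 was called (0.00451%). Of the members, 3 had an unadjusted p under 0.05, as did 1675 of all genes (7.56%), and DESeq2 called 2 (*Srxn1* and *Txnrd1*) among 204 of the 23478 genes to which it gave an adjusted p. *Srxn1* had 570 and 554 CPM on the operated side of the control mice, against 429 and 438 CPM on the other, and 443 and 609 against 413 and 449 CPM in the cKO mice. It was higher on the operated side in 4 of 4 mice, by 1.07 to 1.36 times (log2 fold change 0.36, SE 0.093, unadjusted p 0.00544, adjusted p 0.45, edgeR). *Txnrd1* was at 193 and 192 against 165 and 161 CPM in control and at 154 and 170 against 143 and 147 CPM in cKO mice, higher in 4 of 4 mice by 1.08 to 1.19 times (0.22, SE 0.0461, unadjusted p 0.0014, adjusted p 0.29, edgeR).

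*Slc7a11* was also higher on the operated side in 4 of 4 mice, by 1.05 to 1.82 times, within levels of 1.94 to 5.05 CPM; edgeR gave a log2 fold change of 0.54 (SE 0.209, adjusted p 0.623). The other 5 members had log2 fold changes between -0.07 and 0.08, and some of these small differences also had 1 direction in every mouse. *Nfe2l2* was higher in 4 of 4 mice (1.01 to 1.07 times), and *Keap1* and *Gclc* were lower in 4 of 4 (0.926 to 0.983 and 0.888 to 0.993 times). The share of all genes with 1 direction in every mouse is not given here, so this agreement by itself says little for any member. *Keap1* was the one member whose sides did not overlap (69.5 to 72.5 against 72.6 to 78.1 CPM), where 1.95% of all genes were lower without overlap. *Srxn1* and *Txnrd1* passed the threshold without the filter on low counts (adjusted p 0.00287 and 0.0453, edgeR, among 381 genes called) and with DESeq2 (0.00688 and 0.045, among 204), and *Srxn1* also without ipsilateral cKO replicate 1 (0.0253, among 85), against 1 gene in the fit as planned. Pairing the sides by mouse gave a call for neither (adjusted p 0.231 and 0.218). Of the 10 injury genes (*Atf3*, *Sox11*, *Jun* and others) all 10 rose after crush in each genotype and 1 was called between the sham sides. All 10 had an unadjusted p under 0.05 between the sham sides (edgeR), as did 7.56% of all genes. Their median log2 fold change was 1.23 there, beside 3.12 in control and 3.22 in cKO mice after crush. These are separate fits, side by side.

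Cultured neurons held the largest differences. Against contralateral sham ganglia 7 of the 8 members were higher and *Keap1* was lower. This was a comparison in which 75.5% of 24192 genes were called, 39.1% higher and 36.4% lower, so a call by itself says little here and the sizes carry the description. The median log2 fold change of the members was 1.78, beside 0.04 over all genes tested. Sex (female neurons, male ganglia), culture and cell makeup cannot be told apart in this comparison. The naive ganglia, which were female, gave the same 8 calls in the same directions.

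*Slc7a11* differed most. It was at 364, 328 and 282 CPM in control and 308, 319 and 325 CPM in cKO neurons, and at 1.94 to 3.15 CPM in the 4 contralateral ganglia, a 132-fold difference (log2 7.05, SE 0.17, adjusted p 1.49e-11, edgeR). Against naive ganglia, where its level was higher and scattered, the difference was 34.6-fold (log2 5.11, SE 0.315). No ganglion library of any group exceeded 19.3 CPM. The size of this difference thus depends on which ganglia serve as the reference, and its direction does not.

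*Hmox1* was at 1962, 1334 and 1401 CPM in control and 1184, 1246 and 1255 CPM in cKO neurons, against 34.7 to 44.1 CPM in contralateral ganglia. That was a 36.1-fold difference (log2 5.17, SE 0.126, adjusted p 1.49e-11, edgeR), and 46.5-fold against naive ganglia. *Txnrd1* was at 889 to 1099 CPM in neurons and 143 to 165 CPM in contralateral ganglia, 6.37-fold higher (log2 2.67, SE 0.0638, adjusted p 1.44e-11). *Srxn1* was at 1424 to 1607 CPM against 413 to 449 CPM, 3.66-fold higher (log2 1.87, SE 0.0845, adjusted p 8.85e-10). Its highest ganglion library, injured cKO replicate 2 at 1501 CPM, lay within the range of the neurons, so for *Srxn1* alone among the 7 crush and culture levels overlapped.

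*Nfe2l2* was at 189 to 223 CPM in neurons and 62.0 to 69.0 CPM in contralateral ganglia (3.24-fold, log2 1.7, SE 0.0507, adjusted p 4.5e-11, edgeR). *Gclc* was 2.16-fold higher, at 115 to 145 CPM against 58.7 to 62.9 CPM, and *Gclm* 2.61-fold, at 143 to 223 CPM against 63.6 to 71.4 CPM. *Keap1* was the exception, at 50 to 57.0 CPM in neurons and 72.6 to 78.1 CPM in contralateral ganglia (log2 -0.38, SE 0.0468, adjusted p 8.47e-06). Against naive ganglia its difference shrank to -0.16 (adjusted p 0.00072), and the antisense overlap given above applies.

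**Figure D3:**
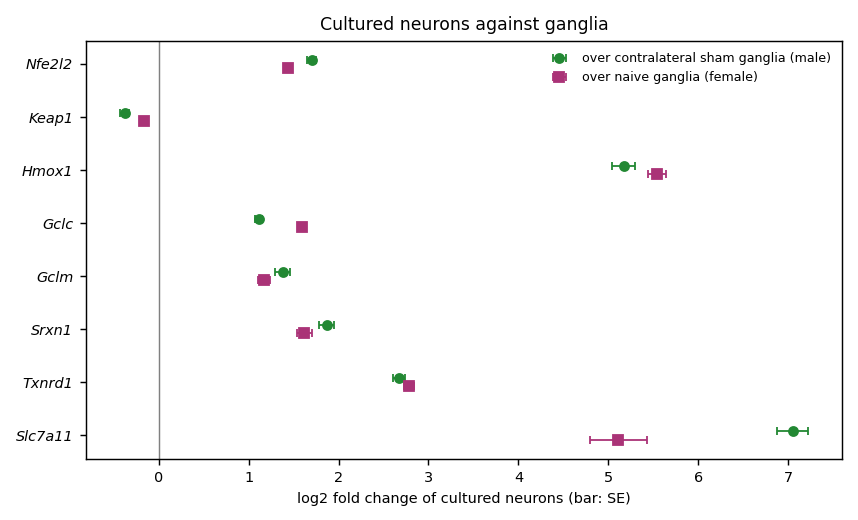
Log2 fold change of cultured neurons over contralateral sham ganglia (circles, 6 against 4 libraries) and over naive ganglia (squares, 6 against 6 libraries), with bars of 1 SE. *Slc7a11* and *Hmox1* stand far to the right, at 7.05 and 5.17 over sham ganglia, and *Keap1* alone lies below 0.

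Other genes of the pathway were also apart, in a comparison where 39.1% of all genes were higher and 36.4% lower. Of the 13 regulators 8 were higher and 4 lower (61.5% and 30.8%), with *Maff* (8.62-fold), *Bach1* (6.24-fold), *Mafk* (4.88-fold) and *Sqstm1* (2.47-fold) the furthest up. *Mafg*, *Cul3*, *Gsk3b* and *Nfe2l3* were higher by 1.3 to 1.58 times, and *Rbx1*, *Dpp3*, *Nfe2l1* and *Btrc* were lower (log2 -0.74 to -0.31). Of 19 NADPH and quinone genes 12 were higher and 6 lower (63.2% and 31.6%), and those with the smallest adjusted p were *Osgin1* (33.4-fold), the drug exporter gene *Abcc1* (12.4-fold), *Nqo1* (9.38-fold) and *Pgd* (2.95-fold), and the median log2 fold change of the list was 0.6. Of 24 glutathione genes 12 were higher and 10 lower (50% and 41.7%, near the shares over all genes), with *Chac1* (11.2-fold), *Gsta4* (6.34-fold) and *Slc3a2* (4.9-fold) up and *Gstt1* down. Of 14 thioredoxin genes 5 were higher (35.7%), among them *Sesn2* (14.2-fold), *Prdx6* (6.28-fold) and *Prdx1* (4.2-fold), and 8 lower (57.1%), among them *Sesn1*. Of 10 heme and iron genes 4 were higher and 5 lower (40.0% and 50%). The higher ones included the iron exporter *Slc40a1* (7.64-fold) and *Alas1* (1.49-fold), and the lower ones *Fech* and transferrin (*Trf*). *Cat* was 1.16-fold higher and *Sod1* lower, and the other 2 superoxide and peroxide genes were not called.

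All 12 ATF4 stress response genes were higher, with *Trib3* at 6.61-fold, *Slc3a2* at 4.9-fold, *Ddit3* at 3.43-fold and *Psat1* at 2.18-fold. Of 8 genes of AhR and its targets 7 were higher (87.5%) and none lower. *Cyp1a1*, the cytochrome P450 that serves as the standard readout of AhR activity, was at 258 to 403 CPM in neurons and at 0.166 to 0.367 CPM (6 to 18 counts) in contralateral ganglia, *Tiparp* was 4.58-fold and *Arnt* 2.85-fold higher, and *Nqo1*, a target of both factors, belongs to this list too. *Ahr* itself was 1.81 higher on the log2 scale (SE 0.0933).

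The cell makeup of the neuron libraries moved with these results. The 12 sensory neuron markers summed to 5251 to 6115 CPM in neurons and 12410 to 13647 CPM in contralateral ganglia, and all 12 were lower. The 6 endothelial markers summed to 950 to 1434 CPM against 82.6 to 140 CPM, and all 6 were higher. The 6 Schwann cell markers summed to 591 to 729 CPM against 3326 to 5236 CPM, and all 6 were lower. Of the 12 macrophage markers 8 were lower and 3 higher, with a median log2 fold change of -2.03, although their sums were near each other (210 to 344 CPM against 288 to 353 CPM). *C1qa* was at 0.117 to 0.394 CPM and *Cd163* at 0.0 to 0.382 CPM in neurons, while *Cd14* was 17.1-fold higher and *Cd68* was at 15 to 20 CPM against 2.7 to 4.32 CPM. All 5 erythrocyte markers were lower (5.14 to 25.4 CPM against 268 to 945 CPM, median log2 fold change -5.38), as were all 4 neutrophil markers and 4 of the 6 fibroblast markers, of which 1 was higher. Of the 8 satellite glia markers 4 were higher and 4 lower. The part of these other cells in the levels of *Slc7a11*, *Hmox1* and the other members was not tested.

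Within the neurons no member was called between genotypes by edgeR or by DESeq2, where edgeR called 0.0% of 23295 genes (1863 had an unadjusted p under 0.05, and DESeq2 called 166). *Hmox1*, *Gclc*, *Gclm* and *Txnrd1* were lower in all 3 cKO than in all 3 control cultures, where 7.61% of all genes were lower without overlap. *Gclc* was at 145, 133 and 132 CPM in control and 115, 116 and 117 CPM in cKO neurons (log2 fold change -0.24, SE 0.07, unadjusted p 0.00877, adjusted p 0.536, edgeR). *Hmox1* differed by -0.36 (SE 0.154, adjusted p 0.62) and *Gclm*, at 223, 160 and 168 against 143, 152 and 151 CPM, by -0.31 (SE 0.132, adjusted p 0.62). Neuron control replicate 1 was the highest library for each of these 3 genes, had the fewest counts and had the highest sums of endothelial markers (1434 CPM, against 950 to 1203) and of satellite glia markers (3077 CPM, against 1982 to 2400). Without it the differences were -0.14, -0.18 and -0.13 for *Hmox1*, *Gclc* and *Gclm*. Between the genotypes edgeR called none of the cell markers. Its unadjusted p was under 0.05 for 4 of 6 endothelial (median log2 fold change -0.27), 4 of 12 macrophage (0.5) and 4 of 5 erythrocyte markers (1.25). In each other cell list this held for at most 2 markers. The part of these cells in the member differences was not tested in the neurons.

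In the ganglia no member was called by edgeR or DESeq2 in naive (0.00941% of 21261 genes called by edgeR), injured (0.00941%), sham ipsilateral (0.00451% of 22160) or sham contralateral ganglia (0.0%), where 1232, 579, 1682 and 1160 genes had an unadjusted p under 0.05 and DESeq2 called 2, 4, 176 and 33. The log2 fold changes of the members other than *Slc7a11* lay between -0.01 and 0.09 in naive and between -0.1 and 0.08 in injured ganglia. *Txnrd1* was lower in the sham cKO mice on both sides, at 154 and 170 against 193 and 192 CPM ipsilaterally (-0.21, SE 0.0651, unadjusted p 0.0118, adjusted p 0.532, edgeR) and at 143 and 147 against 165 and 161 CPM contralaterally (-0.17, SE 0.0653, unadjusted p 0.0329, adjusted p 0.88), without overlap, where 22.4% and 18.2% of all genes were lower without overlap. *Nfe2l2* was likewise lower without overlap on both sides (64.0 and 64.8 against 73.7 and 68.7 CPM, and 63.4 and 62.0 against 69.0 and 66.0 CPM), and *Gclc* on the ipsilateral side (55.8 and 54.0 against 60.0 and 59.2 CPM). These are the same 4 mice on both sides. Some sums of cell markers also stood apart between these genotypes without overlap. Of all genes, 13.5% were higher without overlap on the ipsilateral and 20.1% on the contralateral side. None of the cell markers was called by edgeR, and the sums of the lists not named for a side overlapped. On the ipsilateral side the cKO libraries had lower sums of sensory neuron (11796 to 11906 against 12751 to 13191 CPM) and satellite glia markers (2625 to 2692 against 2733 to 2896 CPM). There they had higher sums of macrophage (326 to 482 against 258 to 305 CPM), neutrophil (243 to 492 against 130 to 178 CPM) and fibroblast markers (801 to 862 against 463 to 774 CPM). On the contralateral side their sensory neuron (13498 to 13647 against 12410 to 13028 CPM) and neutrophil sums (211 to 285 against 185 to 195 CPM) were higher and their endothelial sums lower (82.6 to 102 against 109 to 140 CPM). The part of these cells in the member differences was not tested. In injured ganglia *Nfe2l2* was the one member lower in all cKO mice (91.7 to 94.6 against 97.5 to 97.8 CPM, adjusted p 1.0), where 4.02% of all genes were lower without overlap. No cell marker was called there. The unadjusted p (edgeR) was under 0.05 for 5 of 5 erythrocyte (median log2 fold change -1.1) and 3 of 4 neutrophil markers (-1.63). In each other cell list this held for at most 1 marker, and the part of these cells was not tested. In naive ganglia the *Txnrd1* levels overlapped. *Slc7a11* differed by -0.73 (SE 0.567) in naive, 0.41 (SE 0.579) in injured and -0.32 (SE 0.291) in sham ipsilateral and 0.21 (SE 0.299) in sham contralateral ganglia, none called. The naive value lay between -1.36 (without naive cKO replicate 2) and -0.21 (without naive control replicate 1), and the injured value was -0.25 without injured cKO replicate 3. The ipsilateral value was 0.09 without control replicate 1, and the contralateral value -0.03 without cKO replicate 2 or control replicate 2.

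**Figure D4:**
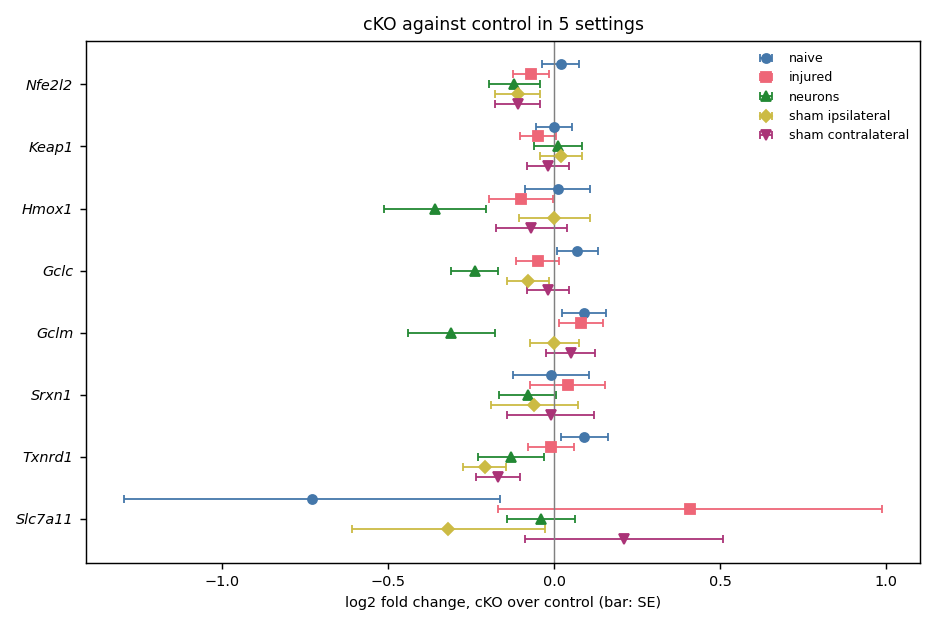
Log2 fold change of cKO over control for each gene in naive ganglia, injured ganglia, neurons, and sham ganglia of the ipsilateral and contralateral side (horizontal axis, bar 1 SE). None of the 40 values was called, and the lowest values in neurons are those of *Hmox1*, *Gclm* and *Gclc*, at -0.36, -0.31 and -0.24.

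Across the 10 groups the members fell into different orders. *Txnrd1* and *Nfe2l2* had their groups in nearly separate steps: ganglia without nerve crush lowest, crush next and neurons highest, with no overlap between crush and either side. *Srxn1* had crush and neurons as overlapping neighbours at the top, and sham ipsilateral ganglia overlapping the naive ones. *Hmox1*, *Gclc*, *Gclm* and *Slc7a11* had neurons alone at the top, and for *Hmox1* the 8 ganglion groups overlapped from each to the next. *Gclc* was lower in the injured (32.4 to 37.6 CPM) and naive (39.4 to 44.3 CPM) than in the sham ganglia (54.0 to 62.9 CPM), and *Keap1* likewise stood at 51.7 to 62.7 CPM against 69.5 to 78.1 CPM. The naive and injured libraries came in one table and the sham libraries in another, and the sets also differ in surgery and, apart from injured cKO replicates 2 and 3, in the sex read from transcripts. The sensory neuron markers summed to 11796 to 13647 CPM in sham and 8313 to 9861 CPM in naive and injured ganglia. The summed CPM of the glutathione list was also higher in sham ganglia, at 1552 to 1669 against 800 to 956. That of the thioredoxin list was higher too, at 1537 to 1718 against 957 to 1060. The heme and iron, NADPH and quinone, and superoxide and peroxide lists went the same way. The regulator and ATF4 lists overlapped, and the list of AhR and its targets was lower in sham ganglia (112 to 138 against 179 to 283 CPM). The part of each in the *Gclc* and *Keap1* difference was not tested.

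Over the 26 libraries, ganglia and neurons together, Pearson's r of the log2 CPM with *Nfe2l2* was 0.97 for *Txnrd1*, 0.96 for *Gclm*, 0.95 for *Slc7a11*, 0.93 for *Hmox1*, 0.86 for *Srxn1*, 0.75 for *Gclc* and -0.73 for *Keap1*. The 2 genes most like each member other than *Gclm*, by the same measure and among genes of at least 1 CPM, were *Cdk17* (0.995) and *Glis3* (0.994) for *Nfe2l2*, *Rpusd1* (0.968) and *Srrm3* (0.964) for *Keap1*, *Nqo1* and *Dhx15* (0.995 each) for *Hmox1*, and *Ptprm* (0.992) and *Lrch1* (0.988) for *Gclc*. They were *Ehd4* (0.989) and *Flrt3* (0.985) for *Srxn1*, *Nop58* and *Myc* (0.993 each) for *Txnrd1*, and *Gpr4* (0.989) and *Tmem39a* (0.985) for *Slc7a11*. The libraries share groups and depth, so these values describe a pattern over groups and carry no p. *Nqo1* accompanied *Hmox1* at 12.6 to 16.9 CPM in the 20 ganglion libraries and 117 to 160 CPM in neurons.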

How the data were processed

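RNA was sequenced from 26 libraries in 10 groups, made with a stranded mRNA kit per the labels' protocols. Reads were trimmed with Trim Galore, aligned with HISAT2 to mm10 and counted with featureCounts, per the submitters' processing notes. The authors deposited 2 tables of raw counts per gene and 2 of FPKM. The deposited FPKM values divide by the whole gene span (100.0% of genes with at least 10 counts, within 0.1%), so introns are counted, and FPKM served only to learn this. The 55401 Ensembl IDs were matched to GENCODE M21 symbols (99.53%).

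The members and lists were chosen with earlier results of these data known. Counts were tested with edgeR 4.0.16 (quasi-likelihood, TMM, filterByExpr with a minimum count of 10, Benjamini-Hochberg over all genes, threshold 0.05) in 4 fits: 12 naive and injured, 6 neuron, 8 sham, and 14 neuron and sham libraries. SE was taken from the F statistic of each test. Levels are CPM with TMM factors over all 26 libraries. The comparison of neurons with naive ganglia spans 2 tables that were deposited separately. The genes named are the 8 members, *Ahr*, the 2 genes most like each member (those for *Gclm* are not reported here), and up to 4 called genes per list with the smallest adjusted p (every one of the regulators). Named outside this rule, chosen after their values were seen, are *Cd163*, *Cd68*, the antisense genes *Gm16754* and *Gm17494*, and the 5 genes most like *Slc7a11* over the 12 naive and injured libraries. Alternatives were DESeq2 1.42.0, other scalings and filters, sex covariates, replicate blocks, leaving out each library, and, chosen after seeing the data, leaving out the 2 libraries whose sex does not match and crossing the cKO sham sides. The fits were tested on simulated data. Replicate pairs differed beyond counting noise (chi-square per degree of freedom 3.32 to 39.9 over 22 pairs). Sham sides with 1 number come from 1 mouse, per the labels, and their deviations correlated at 0.229 in control and -0.159 in cKO mice.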

Additional observations from a re-analysis of the deposited data

How the results depend on the processing

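The calls after crush were 3 members in control mice (3 to 4 under the alternatives, 3 without each library in turn) and 4 in cKO mice (4 to 5, and 4), and all 8 members were called between neurons and contralateral ganglia under every alternative run. Between the sham sides 2 members were called without the filter and 2 with DESeq2, and leaving out 1 library gave 0 to 1. With the mouse as a replicate block *Srxn1* had an adjusted p of 0.231 and *Txnrd1* of 0.218, and the crossed pairing of the cKO sides gave 0 members and 9 genes in all, against 4 with the block as labelled. The replicate block in the naive and injured libraries added *Hmox1* in control mice (0.25, adjusted p 0.0419) and changed no other call of a member; there and in the neurons a number marks no shared mouse.

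Signs reversed only among uncalled values. *Srxn1* had an interaction of -0.25 with the transcript sex and -0.16 without the 2 libraries whose sex does not match (-0.11 to 0.17 without 1 library), and its genotype difference in injured ganglia was -0.26 and -0.18 (-0.12 to 0.16). *Slc7a11* after crush in cKO mice was -0.21 with the labelled sex (-0.35 to 0.95 without 1 library), and its genotype difference spanned -0.25 to 0.77 in injured, -0.64 to 0.09 in sham ipsilateral and -0.03 to 0.51 in sham contralateral ganglia. The cause was not tested. Of 39 further values, 22 changed sign in some alternative and 0 were called.

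Counts over all genes moved more. After crush in cKO mice 1414 genes were called with the transcript sex and 2400 without the 2 libraries, against 3962. Without the filter 27 genes were called by genotype in neurons, 626 in sham ipsilateral and 59 in contralateral ganglia, and 381 between sham sides (DESeq2: 166, 176, 33 and 204). Leaving out 1 library gave at most 8 genes for the interaction, 15 by genotype in injured ganglia, 15 in neurons, 98 in sham ipsilateral ganglia and 85 between sides. The lowest count of any member in a library was 77, of *Slc7a11* in a ganglion.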

Other observations

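The scatter of *Slc7a11* among the 12 naive and injured ganglia had close company, in genes chosen after their values were seen. Over these libraries the log2 CPM of *Slc7a11* was most like that of *Aldh1a2* (Pearson's r 0.982), which encodes a retinoic acid-making enzyme, and then of *Rbp4* (0.971), which encodes the plasma retinol carrier, *Dcdc2a* (0.965), *Npr3* (0.964) and *Atp13a5* (0.962). *Aldh1a2* was at 26.2, 5.7 and 17.4 CPM in the naive controls, 7.06, 17.6 and 4.1 CPM in the naive cKO mice, 6.17, 5.27 and 14.3 CPM in injured control and 7.5, 4.24 and 19.3 CPM in injured cKO mice, beside 19.3, 4.89 and 11.7, 5.66, 12.4 and 3.51, 5.49, 5.54 and 9.23, and 7.54, 3.8 and 15.5 CPM for *Slc7a11*. The pair parted elsewhere: in the 2 sham ipsilateral controls *Aldh1a2* was at 22.5 and 1.87 CPM and *Slc7a11* at 5.05 and 3.11 CPM, and in neurons *Aldh1a2* was at 0.516 to 1.51 CPM and *Slc7a11* at 282 to 364 CPM. What these ganglia share was not tested.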
